A study of Rattus norvegicus with 30 samples.

Results

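The eicosanoid synthesis enzymes measured here are 10 genes, of 14506 genes named on the arrays: Alox5, Alox5ap, Lta4h and Ltc4s of leukotriene synthesis, the lipoxygenase Alox15, the cyclooxygenases Ptgs1 and Ptgs2, and the terminal prostanoid synthases Ptges, Hpgds and Tbxas1. The 10 genes were chosen with earlier results of these data known, so their counts beside those of all genes are descriptive. A gene entered the set where the platform annotation gives its symbol, and its probe set was to be chosen by the highest mean signal across all arrays. Each of the 10 had 1 probe set, so that measured mean decided nothing. All 10 passed the filter on dim probe sets, which kept probe sets above the 30th percentile of the array on at least 3 arrays, and each was above that percentile on 30 of 30 arrays. Alox15 lay above the array median on 2 of 30 arrays, Ptges on 0 and Hpgds on 9, and each of the other genes on 30.

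The RNA came from cells labelled microglia, isolated from brains of male rats after a stroke or a sham operation, and was read on Affymetrix Rat Gene 1.0 ST arrays. Stroke was made by closing the middle cerebral artery with an intraluminal monofilament for 75 min under 1.2% isoflurane, followed by reperfusion. The strain is labelled Wistar Kyoto in one field and spontaneously hypertensive in the protocol, and this conflict could not be settled. The 10 groups of 3 arrays were, at each age of 3 months and of 12 months, sham, and the contralateral (opposite) and ipsilateral (injured) hemisphere at day 3 and at day 14 after stroke. Sample codes tie the injured and the opposite hemisphere of 12 stroke animals. For sham arrays the hemisphere taken, and whether the arrays come from separate animals, are not given in the sources used here, so p-values measure the spread between these samples. The questions the series poses are how microglia change from day 3 to day 14, and how the brain's age bears on that change. Differences were tested with limma over the 11675 genes that passed the filter, with Benjamini-Hochberg adjustment. A gene is said to have risen, fallen or been called where its adjusted p was under 0.05, and values are log2 signals or differences between log2 signals, these with their SE after ±.

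Eicosanoids are short-lived lipid signals made from arachidonic acid that phospholipases free from membranes. In the leukotriene branch, 5-lipoxygenase (Alox5), presented with its substrate by the activating protein FLAP (Alox5ap), makes leukotriene A4, which leukotriene A4 hydrolase (Lta4h) turns into the chemoattractant leukotriene B4 and leukotriene C4 synthase (Ltc4s) joins to glutathione to give the cysteinyl leukotrienes. In the prostanoid branch, the constitutive cyclooxygenase Ptgs1 and the inducible cyclooxygenase Ptgs2 make prostaglandin H2, from which Ptges makes prostaglandin E2, Hpgds prostaglandin D2 and Tbxas1 thromboxane A2. In the brain, microglia express much of this machinery, with Ptgs1 as their usual cyclooxygenase.

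RefSeq promoters of build GRCr8 were found for 7 of the 10 genes (Alox5, Lta4h, Ltc4s, Ptgs1, Ptgs2, Ptges and Tbxas1). The 250 bases before the start are shown for the genes with the widest range of group means, because 3 of these fell together and Ptgs2 moved the other way. They are Alox5 at chr4:151251127-151251376 (minus strand), Ltc4s at chr10:35063595-35063844 (minus strand), Ptgs1 at chr3:39981169-39981418 (plus strand) and Ptgs2 at chr13:64713813-64714062 (plus strand), each written 5′ to 3′ on the gene's strand. Capitals mark matches, on either strand, to any of 5 motifs. These are the GC box, spelled GGGCGG, which binds Sp factors, and the TATA box, spelled TATAAA, near which transcription starts. The others are the core of the myeloid factor PU.1, spelled GAGGAA, the CCAAT box, which binds NF-Y and is spelled CCAAT, and the half-site of the cyclic AMP response element, spelled TGACG.
Alox5: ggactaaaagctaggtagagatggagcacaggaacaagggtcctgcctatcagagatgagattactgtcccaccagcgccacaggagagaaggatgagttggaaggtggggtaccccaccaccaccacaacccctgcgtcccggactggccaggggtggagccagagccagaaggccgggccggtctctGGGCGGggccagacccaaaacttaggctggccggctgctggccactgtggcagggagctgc
Ltc4s: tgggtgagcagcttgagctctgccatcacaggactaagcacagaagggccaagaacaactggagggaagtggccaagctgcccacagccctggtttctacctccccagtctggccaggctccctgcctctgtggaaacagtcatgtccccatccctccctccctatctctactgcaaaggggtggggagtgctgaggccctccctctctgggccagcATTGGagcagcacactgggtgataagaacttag
Ptgs1: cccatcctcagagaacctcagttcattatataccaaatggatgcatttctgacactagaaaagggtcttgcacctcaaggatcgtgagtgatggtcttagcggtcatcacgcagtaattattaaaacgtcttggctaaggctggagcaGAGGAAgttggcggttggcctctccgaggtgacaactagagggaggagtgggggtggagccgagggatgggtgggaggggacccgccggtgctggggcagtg
Ptgs2: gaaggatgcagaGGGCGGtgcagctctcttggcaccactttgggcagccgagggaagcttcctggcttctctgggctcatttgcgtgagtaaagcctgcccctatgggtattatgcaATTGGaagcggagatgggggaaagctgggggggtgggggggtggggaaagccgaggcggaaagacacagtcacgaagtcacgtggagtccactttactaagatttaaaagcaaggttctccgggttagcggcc
In these windows Alox5 held a GC box whose first base lay 61 bases before the start, and Ltc4s a CCAAT box on the opposite strand at 33 bases. Ptgs1 held the PU.1 core at 102 bases. Ptgs2 held a GC box at 238 bases and a CCAAT box on the opposite strand at 133 bases. The 3 genes that fell together shared none of the 5 motifs in these windows. Of 33465 promoters of the same length, 30.5% hold the GC box, 34% the CCAAT box, 23.3% the PU.1 core, 12.9% the TATA box and 18.2% the cyclic AMP half-site, so each match is a description of letters found in many promoters.

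All 30 arrays had medians between 5.06 and 5.24 on the deposited log2 scale. The spread of all values within an array, given as its SD, ran from 1.79 to 1.93 for the 3-month stroke groups and from 1.94 to 2.05 for the remaining arrays. The sample codes carry 1 number for 3-month day 3, another for 3-month day 14, another for 3-month sham and 1 for all 12-month arrays. At 3 months a comparison with sham or between days, and the comparison of the sham groups between ages, therefore cannot be told apart from that number. Each comparison of hemispheres lies within 1 number. The change of the hemisphere difference between days at 3 months, and between ages, sets such differences side by side across numbers. An effect of that number on the size of the hemisphere difference cannot be told apart there.

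The label microglia was checked on marker lists. These were chosen with earlier results of these data known, so the check is not independent of the data. All 10 microglial markers with a probe set passed the filter and 9 were above the 30th percentile on every array, and their mean log2 signal was 9.43 or higher on each array. In the injured hemisphere this mean was lower than in the opposite one: 9.43 to 9.65 against 10.00 to 10.08 at 3 months and day 3, 9.53 to 9.74 against 9.91 to 9.95 at day 14, 9.68 to 9.84 against 10.18 to 10.32 at 12 months and day 3, and 9.65 to 9.82 against 10.15 to 10.22 at day 14. Between 6 and 8 of the 10 markers fell in each comparison, and Itgam rose in all but 12 months and day 3. Of 11 tested markers of infiltrating monocytes and macrophages, 11 rose at 3 months and day 3, 6 at day 14, and 10 and 7 at 12 months, while Plac8 fell at day 14 at both ages. Their mean was 7.05 to 8.23 in the injured hemisphere of 3-month rats at day 3 and 6.68 to 6.88 at day 14, 7.71 to 7.92 and 6.57 to 7.02 at 12 months, and 5.72 to 6.19 on the opposite and sham arrays. Border macrophage markers rose for 7 and 8 of 8 genes at day 3 and 2 of 8 at day 14 at both ages, where Lyve1 fell (-1.37, adjusted p = 0.00055, at 3 months and -1.38, adjusted p = 0.00055, at 12 months). Itgam, Plac8 and Lyve1 are named after their values were seen, as the members that went against their lists. Neutrophil markers rose for 4 of 13 genes at 3 months and day 3, and for 1, 1 and 0 of 13 in the other comparisons, and fell for 3 at 3 months and day 14 and 1 at 12 months and day 14. Of mast cell markers, 6 of 10, Cpa3, Cma1 and Kit among them, were at or below the 30th percentile on every array, and 0 of the 3 that passed were called in any comparison of hemispheres, or had an unadjusted p under 0.05 there. Platelet markers were called for 1 of 4, lower, at 12 months and day 3 only. The eosinophil marker Ccr3 fell in all 4 comparisons (-0.90, -0.45, -0.65 and -0.51). It was at or below the 30th percentile on all 3 injured arrays of 3 months and day 3, so the size of -0.90 is uncertain. Epx, the other eosinophil marker that passed the filter, was not called (-0.08, -0.23, -0.08 and -0.03). Prg2 and Il5ra were at or below the 30th percentile on every array. Of 8 T and NK cell markers 1, 2, 1 and 2 rose, with Cd8a in each (0.80, 0.95, 0.83 and 0.89). The other that rose, Cd4, read 8.79 to 10.26 over all arrays, sham among them. Cd3g, Klrd1 and Prf1 were above the 30th percentile on 0 of 30 arrays, Cd3d on 5, Cd3e on 7 and Nkg7 on 9. Of 6 endothelial markers 1, 0, 3 and 0 rose and 3, 1, 1 and 2 fell, in the same order (Cldn5 0.62 at 12 months and day 3, Pecam1 -0.59 at 12 months and day 14). Of 8 oligodendrocyte markers 1, 2, 2 and 1 fell (Cnp -0.84 at 12 months and day 14). Blnk, 1 of 2 B cell markers, fell at day 3 at both ages. It read 9.53 to 10.42 over all arrays, while the B cell marker Ms4a1 was at or below the 30th percentile on every array. Astrocyte markers fell for 2 of 6, neuronal markers for 1 of 7 and pericyte and fibroblast markers for 1 of 7 at 3 months and day 14, and were not called in the other comparisons. In these 4 comparisons, in the order 3 months day 3 and day 14, then 12 months day 3 and day 14, many genes were called. Of all genes tested, 11.5%, 13.2%, 18.7% and 10.9% were called higher and 8.95%, 7.09%, 10% and 5.94% lower. A count of 1 or 2 genes in a short list is to be read against these shares and does not by itself mark a cell type. In bulk samples, fewer cells of a type and less RNA per cell cannot be told apart.

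Against the opposite hemisphere, Alox5, Ltc4s and Ptgs1 fell in the injured hemisphere at both ages and both days, and these were the only members called in all 4 comparisons. At 3 months and day 3, 3 of 10 members fell and 1, Ptgs2, rose, where 20.4% of all genes tested were called (8.95% lower and 11.5% higher). At 3 months and day 14, 4 fell (the same 3 and Alox5ap) and 1, Hpgds, rose, with 20.3% of all genes called (7.09% lower and 13.2% higher). At 12 months and day 3, 3 fell, with 28.7% called (10% lower and 18.7% higher). At 12 months and day 14, 4 fell (the same 3 and Alox5ap) and Hpgds rose, with 16.8% called (5.94% lower and 10.9% higher). Genes that fell in all 4 comparisons were 246 of all those tested, or 2.11%, and genes that rose in all 4 were 4.87%. The median log2 difference of the 10 members was -0.13, -0.15, -0.07 and -0.14, in the same order, beside -0.01 over all genes tested in each comparison.

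**Figure D1:**
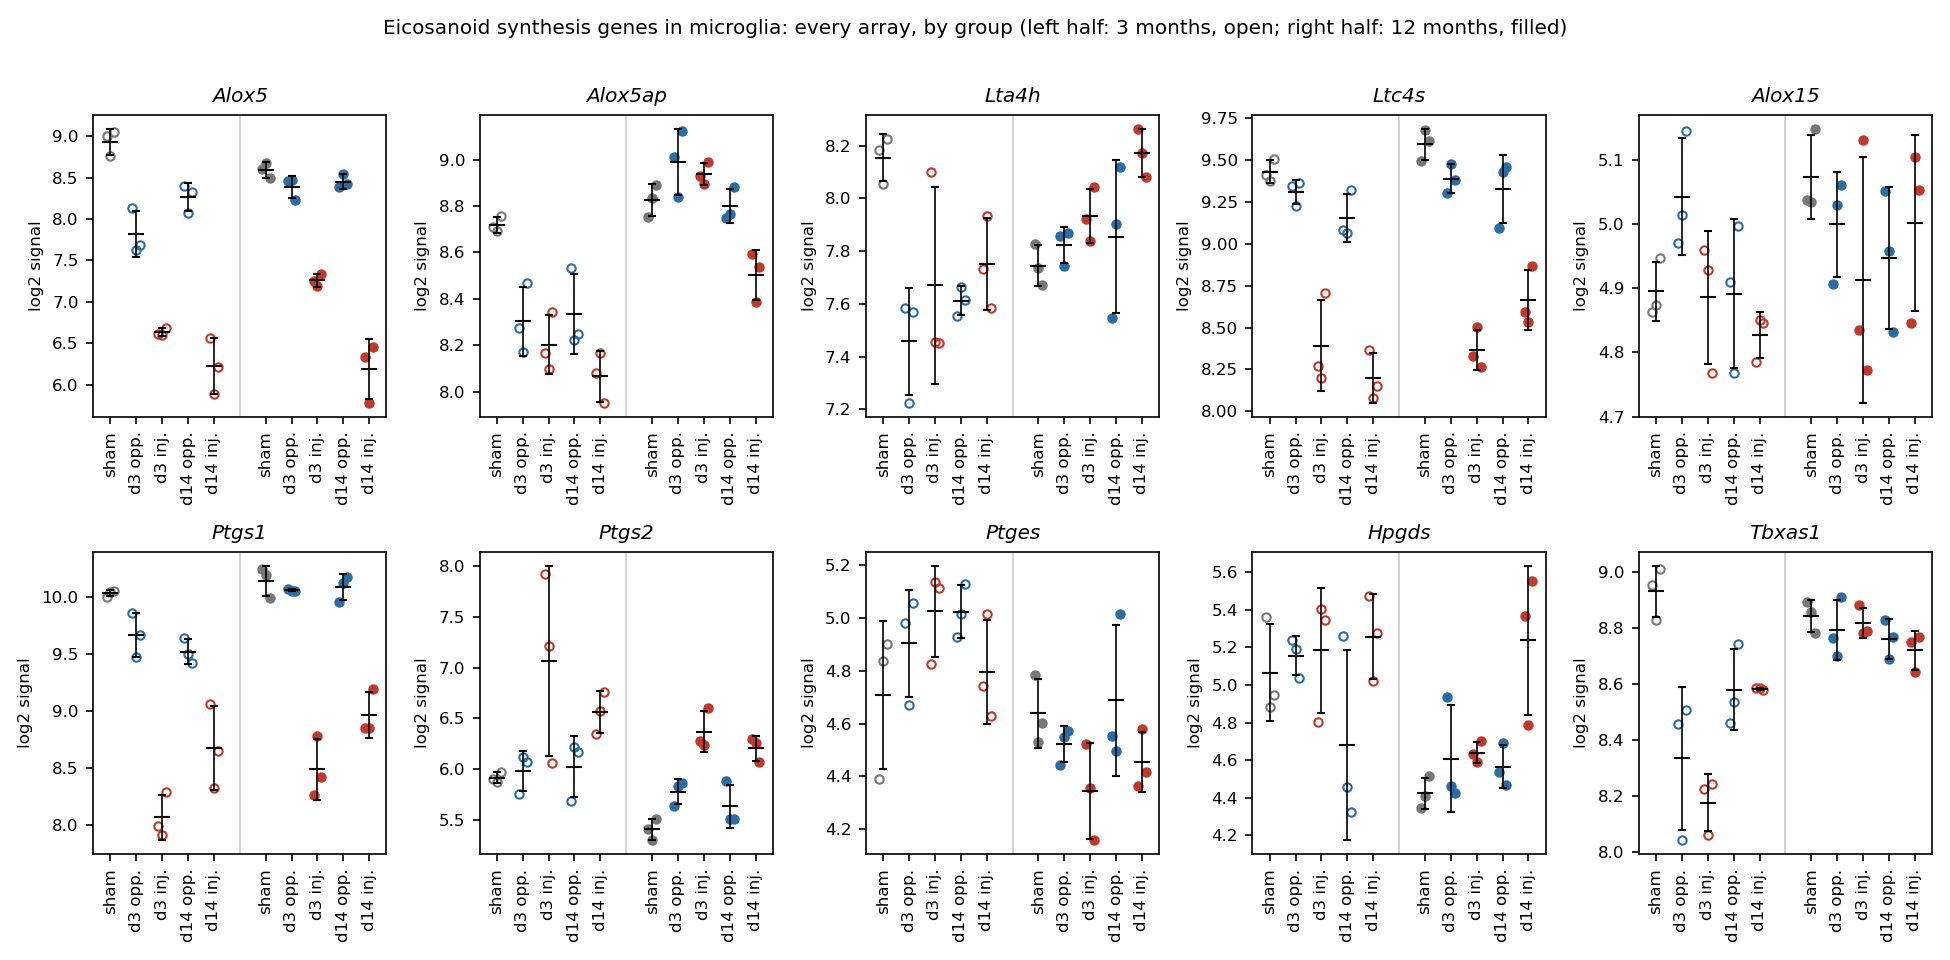
Log2 signal (vertical axis) of the 10 enzymes on each of the 30 arrays, by group (horizontal axis). Grey points are sham, blue the opposite and red the injured hemisphere, open points 3 months and filled points 12 months, and black bars are the mean ± SD of 3 arrays. All red points of Alox5, Ltc4s and Ptgs1 lie below every blue and grey point of the same panel.

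Alox5, the enzyme that begins leukotriene synthesis, had the widest range of group means of the set, 2.75 on the log2 scale. In 3-month rats at day 3 its log2 signal was 6.62, 6.60 and 6.69 in the injured hemisphere and 8.14, 7.63 and 7.69 in the opposite one. At day 14 it was 6.56, 5.89 and 6.21 against 8.39, 8.07 and 8.32. In each case every injured array lay below every opposite array. At 12 months the injured hemisphere read 7.25, 7.19 and 7.34 at day 3, against 8.46, 8.47 and 8.23, and 6.33, 5.78 and 6.45 at day 14, against 8.38, 8.55 and 8.42. Again the groups did not overlap, as for 30%, 29.8%, 45.9% and 31.4% of all genes tested in these 4 comparisons. The differences were -1.18 ± 0.15 (2.27-fold lower, adjusted p = 8.4e-07) and -2.04 ± 0.15 (4.11-fold lower, adjusted p = 2.3e-11) at 3 months. At 12 months they were -1.13 ± 0.15 (2.18-fold lower, adjusted p = 1e-06) and -2.26 ± 0.15 (4.8-fold lower, adjusted p = 2.7e-12). Within animals Alox5 was lower on the injured side in 12 of 12, with log2 differences from -2.77 to -0.89.

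Ordered by group mean, Alox5 was highest in 3-month sham (8.93 ± 0.16, SD, n = 3), followed by 12-month sham (8.59), the 12-month opposite hemisphere at day 14 (8.45) and day 3 (8.38), and the 3-month opposite hemisphere at day 14 (8.26). The gaps between neighbours among the last 4 of these were smaller than the pooled SD of 0.20. Below them came the 3-month opposite hemisphere at day 3 (7.82) and the injured hemisphere at 12 months and day 3 (7.26), at 3 months and day 3 (6.63), and at day 14 in both ages (6.22 and 6.19). The last pair differed by less than the pooled SD.

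Ltc4s, which makes leukotriene C4, fell at both days and both ages. Its log2 signal in 3-month rats was 8.27, 8.20 and 8.70 in the injured and 9.34, 9.23 and 9.36 in the opposite hemisphere at day 3, and 8.37, 8.08 and 8.15 against 9.08, 9.06 and 9.32 at day 14. In 12-month rats it was 8.33, 8.50 and 8.27 against 9.31, 9.48 and 9.38 at day 3 and 8.59, 8.53 and 8.87 against 9.10, 9.43 and 9.46 at day 14. No injured array reached an opposite array of the same age and day. The differences were -0.92 ± 0.12 (adjusted p = 1.1e-06), -0.96 ± 0.12 (adjusted p = 6.3e-07), -1.02 ± 0.12 (adjusted p = 1.1e-07) and -0.66 ± 0.12 (adjusted p = 0.00013), or 1.89, 1.94, 2.03 and 1.58-fold lower. All 12 animals had less Ltc4s signal on the injured side, with log2 differences from -1.17 to -0.50.

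Alox5ap, the membrane protein that hands arachidonic acid to Alox5, fell only slightly and at day 14. In 3-month rats at day 14 it read 8.08, 8.17 and 7.95 in the injured and 8.53, 8.22 and 8.25 in the opposite hemisphere, a difference of -0.27 ± 0.10 (adjusted p = 0.047). In 12-month rats it read 8.59, 8.38 and 8.54 against 8.75, 8.77 and 8.88, a difference of -0.30 ± 0.10 (adjusted p = 0.032). The groups did not overlap in either case. Both calls sat near the threshold: each was lost under 6 of 14 alternatives, 4 of them leaving out 1 array at 12 months (opposite replicates 2 and 3, injured replicates 2 and 3, adjusted p of 0.056 to 0.16) and 3 at 3 months (opposite replicate 1, injured replicates 1 and 3, adjusted p of 0.089 to 0.27). At day 3 the difference was -0.10 (95% interval -0.30 to 0.10, adjusted p = 0.55) at 3 months and -0.05 (-0.25 to 0.14, adjusted p = 0.73) at 12 months. Day 3 and day 14 were not shown to differ for Alox5ap, with differences between the hemisphere differences of -0.17 (adjusted p = 0.58) and -0.24 (adjusted p = 0.41).

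Lta4h, which makes leukotriene B4 from the same intermediate that Ltc4s uses, was not called between hemispheres. Its differences were 0.21 (95% interval -0.07 to 0.49), 0.14 (-0.14 to 0.42), 0.11 (-0.17 to 0.39) and 0.32 (0.03 to 0.60), with adjusted p of 0.33, 0.54, 0.6 and 0.13. All 4 intervals lie above the differences measured for Alox5 and Ltc4s. Without the opposite hemisphere's replicate 3 at 12 months and day 14, Lta4h was called higher there (0.45, adjusted p = 0.04). Alox15, which oxygenates arachidonic acid at another carbon, was dim and had the narrowest range of group means of the set, 0.25. Its hemisphere differences lay between -0.16 and 0.05, with adjusted p of 0.28 or more.

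Alox5 is set here beside the marker lists given above. In the injured hemisphere the monocyte and macrophage list was higher at day 3 than at day 14 at both ages, while Alox5 was lower at day 14 than at day 3. Ltc4s did not share this course at both ages. Its injured means at day 3 and day 14 were 8.39 and 8.20 at 3 months and 8.37 and 8.67 at 12 months. The microglial list was lower in the injured than in the opposite hemisphere in all 4 comparisons, and its genes differed in size. Tmem119 had differences of -1.52, -1.36, -1.37 and -1.38, larger in size than those of Alox5 at day 3 and smaller at day 14, a contrast that was not tested. Gpr34 had -0.79, -0.65, -0.58 and -1.08. Ranked by the largest fall of each gene in any comparison of hemispheres, Tmem119 and Gpr34 led the list. At day 3 other genes differed by more than Gpr34. At 3 months this was Sall1 (-0.85), and at 12 months P2ry12 (mean 11.21 against 11.89) and Sall1 (10.16 against 10.80). Pooled over ages and days, P2ry12 had a mean of 11.18 on the injured arrays and 11.90 on the opposite and sham arrays. Sall1 had 10.07 and 10.71, Cx3cr1 11.29 and 11.81, and Trem2 10.50 and 10.84. Csf1r had 11.29 and 11.60, Aif1 10.53 and 10.62, and the dim Olfml3 4.05 and 4.18. Itgam was higher on the injured arrays, 10.21 against 9.87. The part of these lists in the result was not tested.

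Ptgs1, the constitutive cyclooxygenase, fell at both days and both ages, with the larger differences at day 3. In 3-month rats its log2 signal was 7.99, 7.92 and 8.29 in the injured and 9.86, 9.47 and 9.66 in the opposite hemisphere at day 3, and 9.06, 8.32 and 8.65 against 9.64, 9.49 and 9.42 at day 14. In 12-month rats it was 8.26, 8.78 and 8.42 against 10.07, 10.05 and 10.05 at day 3 and 8.85, 8.85 and 9.19 against 9.95, 10.12 and 10.17 at day 14. The injured arrays lay wholly below the opposite arrays in each of the 4 comparisons. The differences were -1.60 ± 0.14 (3.02-fold lower, adjusted p = 1.9e-09) and -0.84 ± 0.14 (1.79-fold lower, adjusted p = 5.9e-05) at 3 months. At 12 months they were -1.57 ± 0.14 (2.96-fold lower, adjusted p = 1.1e-09) and -1.12 ± 0.14 (2.18-fold lower, adjusted p = 8e-07). All 12 animals had less Ptgs1 signal on the injured side, with log2 differences from -1.86 to -0.58.

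Over the whole series the 12 injured arrays lay below all 18 other arrays for Alox5 (5.78 to 7.34, median 6.58, against 7.63 to 9.05, median 8.44), for Ltc4s (8.08 to 8.87, median 8.35, against 9.06 to 9.68, median 9.38) and for Ptgs1 (7.92 to 9.19, median 8.54, against 9.42 to 10.24, median 10.02). Of all genes tested, 64, or 0.548%, showed this separation.

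Ptgs2, the inducible cyclooxygenase, was the only member called higher at day 3, and only in 3-month rats. There its log2 signal was 7.92, 7.21 and 6.07 in the injured and 5.76, 6.12 and 6.08 in the opposite hemisphere, a difference of 1.08 ± 0.24 (2.11-fold higher, adjusted p = 0.0013). The 3 injured arrays were far apart, and the third lay within the range of the opposite arrays. Without the third array the difference was 1.58 and over all alternatives it was 0.65 to 1.58, with adjusted p from 6e-08 to 0.047. The third array is singled out here by its Ptgs2 value, so a fit without it does not test Ptgs2. The same 3 arrays, in the same order, read 8.23, 7.53 and 7.05 for the mean of the monocyte and macrophage list, 7.76, 7.39 and 7.24 for border macrophages, 6.23, 6.35 and 5.81 for neutrophils and 9.43, 9.45 and 9.65 for microglia. The part of these lists in the spread of Ptgs2 was not tested.

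In the other comparisons Ptgs2 was not called, although its intervals lay above 0. At 3 months and day 14 it read 6.35, 6.57 and 6.76 against 5.69, 6.22 and 6.17, a difference of 0.53 (95% interval 0.04 to 1.03, adjusted p = 0.12). At 12 months it read 6.28, 6.24 and 6.60 against 5.64, 5.84 and 5.87 at day 3 and 6.29, 6.26 and 6.07 against 5.88, 5.52 and 5.51 at day 14. In all 3 of these comparisons every injured array was above every opposite array. The 12-month differences were 0.59 (0.10 to 1.08, adjusted p = 0.066) and 0.57 (0.08 to 1.06, adjusted p = 0.11). With the spread estimated from the compared arrays alone, which leaves out the scattered group, these 3 comparisons had adjusted p of 0.045, 0.0012 and 0.008. The scatter of that group was seen in the Ptgs2 values themselves, so these adjusted p add no support to a rise. In 11 of 12 animals Ptgs2 was higher on the injured side, from -0.01 to 2.16.

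**Figure D2:**
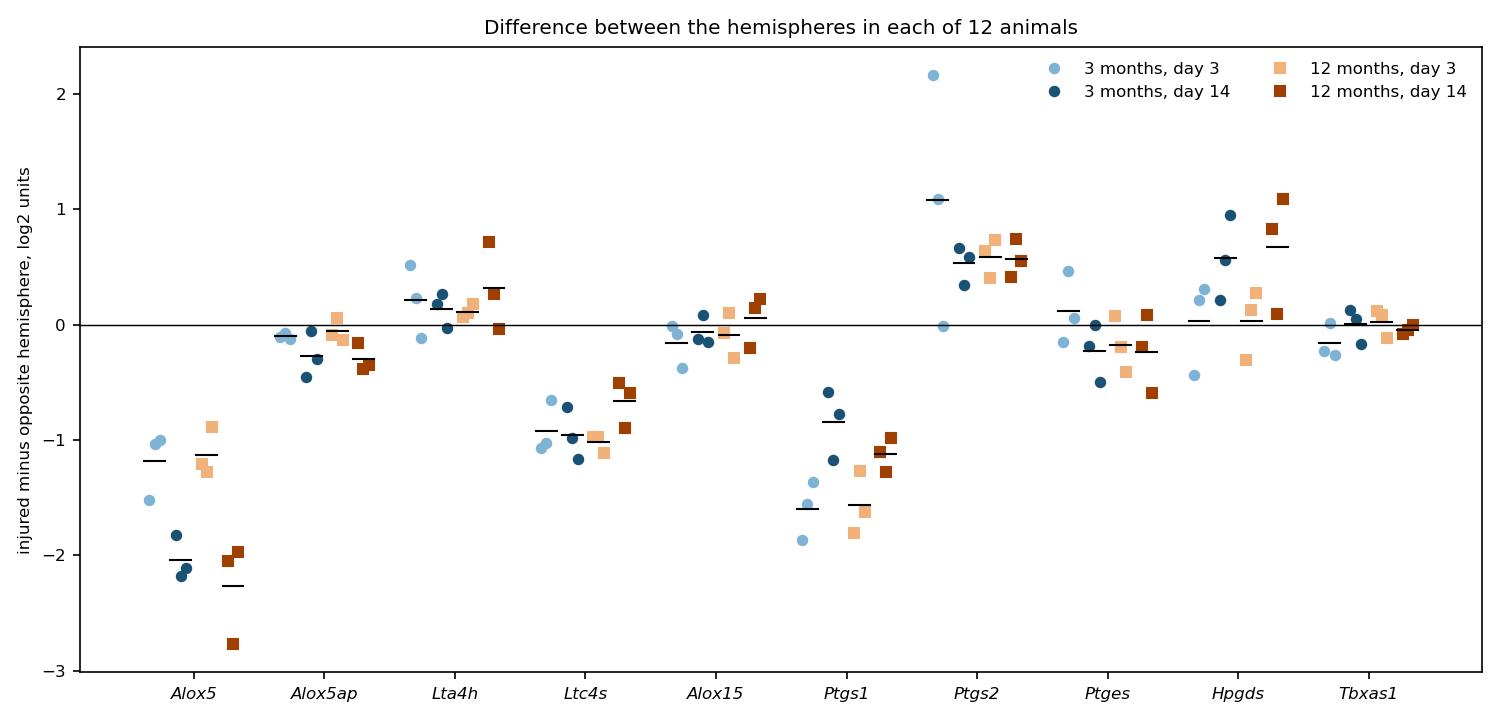
Log2 signal of the injured minus the opposite hemisphere (vertical axis) in each of the 12 stroke animals, for the 10 enzymes (horizontal axis). Colours stand for the 4 combinations of age and day, and black lines are means of 3 animals. All 12 animals are below 0 for Alox5, Ltc4s and Ptgs1, and 11 of 12 are above 0 for Ptgs2.

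Of the enzymes that turn prostaglandin H2 into single prostanoids, only Hpgds, the hematopoietic prostaglandin D2 synthase, was called between hemispheres, and at day 14. In 3-month rats at day 14 it read 5.47, 5.02 and 5.27 in the injured and 5.26, 4.46 and 4.32 in the opposite hemisphere, with overlapping groups, a difference of 0.58 ± 0.20 (1.49-fold higher, adjusted p = 0.037). In 12-month rats it read 5.37, 4.79 and 5.55 against 4.54, 4.69 and 4.47, without overlap, a difference of 0.67 ± 0.20 (1.59-fold higher, adjusted p = 0.016). Both calls depended on single arrays. The 3-month call was lost without opposite replicate 2 or 3 or injured replicate 1 or 3 (adjusted p of 0.083 to 0.21) and with the spread taken from the compared arrays alone (0.11), and the 12-month call without opposite replicate 3 or injured replicate 1 or 3 (0.064 to 0.12). At day 3 the differences were 0.03 (95% interval -0.38 to 0.43) and 0.03 (-0.37 to 0.44). The day 14 and day 3 differences were not shown to differ (adjusted p = 0.31 and 0.23).

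Tbxas1, thromboxane synthase, was above the array median on every array but did not pass the test between hemispheres. Its differences were -0.16 (95% interval -0.36 to 0.04), 0.00 (-0.20 to 0.20), 0.03 (-0.18 to 0.23) and -0.04 (-0.24 to 0.16). These intervals exclude a change of the size seen for Ptgs1 in the same arrays. Without opposite replicate 2 at 3 months and day 3, Tbxas1 was called lower there (-0.30, adjusted p = 0.018). Ptges, the inducible prostaglandin E2 synthase often raised together with Ptgs2, was dim and gave 0.12 (-0.16 to 0.41), -0.23 (-0.51 to 0.06), -0.18 (-0.46 to 0.11) and -0.23 (-0.52 to 0.05), with adjusted p of 0.28 or more.

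The change of the hemisphere difference from day 3 to day 14 was tested as an interaction, and it was called for Alox5 at both ages and for Ptgs1 at 3 months, in opposite directions. Of all genes tested, 3.81% were called at 3 months and 5.34% at 12 months. At 3 months the days also differ in the number within the sample codes, and its part in the change cannot be told apart. Alox5 lay further below the opposite hemisphere at day 14 than at day 3, with a change of -0.86 ± 0.21 (adjusted p = 0.019) at 3 months and -1.14 ± 0.21 (adjusted p = 0.00085) at 12 months. At 3 months both sides moved: from day 3 to day 14 the opposite mean went from 7.82 to 8.26 and the injured mean from 6.63 to 6.22. At 12 months the opposite means were 8.38 and 8.45 and the injured means 7.26 and 6.19. Ptgs1 lay less far below the opposite hemisphere at day 14, with a change of 0.75 ± 0.20 (adjusted p = 0.031) at 3 months, and at 12 months the value was 0.45 ± 0.20 (95% interval 0.03 to 0.86, adjusted p = 0.26). The 12-month Alox5 call held under every alternative run. The 3-month Alox5 call was lost without the third opposite array at day 3 (-0.79, adjusted p = 0.056) or the second injured array at day 14 (-0.69, adjusted p = 0.061), and with the spread taken from the compared arrays alone (adjusted p = 0.081). The 3-month Ptgs1 call was lost after quantile normalization (0.64, adjusted p = 0.066) and without each of 7 single arrays (opposite replicates 1 and 3 and injured replicates 1 and 2 at day 3, opposite replicates 2 and 3 and injured replicate 1 at day 14), with adjusted p of 0.056 to 0.13, and with the compared arrays alone (adjusted p = 0.14). For Ltc4s the change was -0.04 (-0.38 to 0.31) at 3 months and 0.36 (0.01 to 0.70) at 12 months, and it was not called. For Ptgs2 it was -0.55 (-1.24 to 0.15) and -0.02 (-0.72 to 0.67), not called either. The 3-month value became -1.05 (adjusted p = 0.0062) without the injured array of low Ptgs2. That array was singled out by its Ptgs2 value, so this adjusted p does not test Ptgs2.

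**Figure D3:**
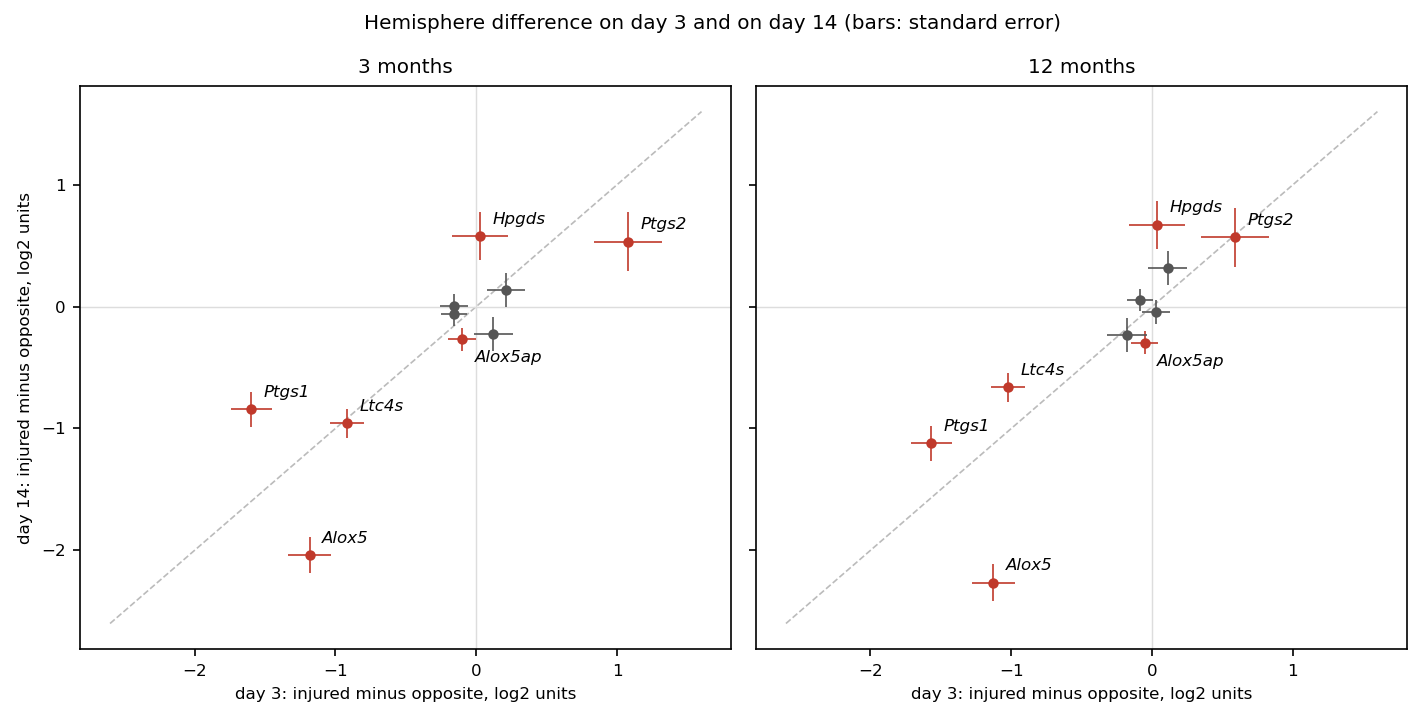
Hemisphere difference (injured minus opposite, log2) at day 3 on the horizontal and at day 14 on the vertical axis, one panel per age, with bars of 1 SE. The dashed line marks equal differences, the 6 enzymes called in at least 1 comparison of hemispheres are red and labelled, and the other 4 grey. Alox5 lies below the line at both ages and Ptgs1 above it.

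Within the injured hemisphere itself, day 14 against day 3, Alox5 fell, with differences of -0.41 (adjusted p = 0.039) at 3 months and -1.07 (adjusted p = 3.7e-06) at 12 months. Ptgs1 was higher by 0.61 (adjusted p = 0.0017) and 0.47 (adjusted p = 0.017). Tbxas1 was also higher at 3 months (0.41, adjusted p = 0.0022), and at 12 months Hpgds was higher (0.60, adjusted p = 0.029) and Alox5ap lower (-0.43, adjusted p = 0.0013). The Tbxas1 mean also went from 8.34 to 8.58 in the 3-month opposite hemisphere, a change that was not called. At 3 months the days differ in the number within the sample codes as well, and its part cannot be told apart. Ptgs2 was called lower at day 14 at 3 months (-1.004, adjusted p = 7.7e-05) only without the injured day 3 array of low Ptgs2. Because that array was singled out by its Ptgs2 value, this adjusted p does not test Ptgs2. In the full set the calls were 3 and 4 of 10 members, with 29.6% and 20.6% of all genes called. The 3-month Alox5 call was lost without any 1 injured array except replicate 1 of day 14 (adjusted p of 0.065 to 0.25), the 12-month Ptgs1 call without replicate 1 or 3 of day 3 or replicate 3 of day 14 (0.068 to 0.13), and the Hpgds call without any 1 injured array except replicate 2 of day 14 (0.058 to 0.17). The share of calls that were higher at day 14 was 74.6% at 3 months and 59.9% after quantile normalization. In the opposite hemisphere limma called 0 of 10 members between the days at either age, with 3 and 0 at an unadjusted p under 0.05, and 10.1% and 1.06% of all genes called.

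The hemisphere difference was not shown to depend on age for any member. Limma called 0 of 10 at day 3 and 0 of 10 at day 14, with 0 at an unadjusted p under 0.05 on either day, and 1.58% and 0.00857% of all genes called. For Alox5 the difference at 12 months minus that at 3 months was 0.06 (95% interval -0.38 to 0.49) at day 3 and -0.23 (-0.66 to 0.21) at day 14. For Ptgs1 it was 0.03 (-0.39 to 0.44) and -0.28 (-0.69 to 0.13), and for Ltc4s -0.10 (-0.45 to 0.24) and 0.29 (-0.05 to 0.64). These intervals leave room for age differences of up to about the size of the smaller hemisphere differences. The stroke arrays of the ages also differ in the number within the sample codes and in the spread of values within arrays. The part of these in the age comparison cannot be told apart. For Ptgs2, called at day 3 in 3-month rats and not in 12-month rats, it was -0.49 (-1.19 to 0.21) at day 3. Without the injured array of low Ptgs2 it was -0.99 (adjusted p = 0.02). The choice of that array by its Ptgs2 value means that this adjusted p does not test a dependence on age.

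Sham arrays gave a second reference, shared by the comparisons of an age. Against sham, Alox5 in the injured hemisphere was -2.30 and -2.71 at 3 months, day 3 and day 14, and -1.33 and -2.40 at 12 months. Ltc4s was -1.04, -1.23, -1.23 and -0.93, and Ptgs1 -1.96, -1.35, -1.65 and -1.18, in the same order, and all 12 of these values were called. Ptgs2 was called higher than sham in each, by 1.15 (adjusted p = 0.00018), 0.64 (0.038), 0.96 (0.002) and 0.80 (0.017). In all, 7, 7, 4 and 7 of 10 members were called against sham, with 56.8%, 34.4%, 37.1% and 20% of all genes called. After quantile normalization the 3-month counts were 5 at each day, with 4 lower in place of 6. Hpgds was called at 12 months and day 14 (0.81, adjusted p = 0.0028). Lta4h was called lower than sham at 3 months (-0.48 and -0.40) and higher at 12 months and day 14 (0.43, adjusted p = 0.026). At day 14 the Ptgs2 call against sham was lost at 3 months without any 1 of 5 arrays (all but injured replicate 1, adjusted p of 0.065 to 0.14) and at 12 months without injured replicate 1 or 2 or sham replicate 2 (0.051 to 0.066). The Lta4h calls of day 14 were lost without injured replicate 1 or 3 or sham replicate 1 or 3 at 3 months (0.052 to 0.12), and without injured replicate 1 or 2 or sham replicate 2 or 3 at 12 months (0.059 to 0.11).

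In 3-month rats the opposite hemisphere also differed from sham for 5 of 10 members at each day, all lower, with 51.6% and 38.7% of all genes called, 37.2% and 28.4% as lower. Alox5 was 8.996, 8.75 and 9.05 in sham and lower in the opposite hemisphere, with differences of -1.12 (adjusted p = 6.6e-07) at day 3 and -0.67 (adjusted p = 0.00091) at day 14. The other 4 were Alox5ap (-0.42 and -0.38), Lta4h (-0.70 and -0.54), Ptgs1 (-0.37 and -0.51) and Tbxas1 (-0.60 and -0.35). The Ptgs1 call at day 3 was lost without opposite replicate 2 or 3 or any 1 sham array (adjusted p of 0.056 to 0.17). After quantile normalization the calls numbered 2 and 0, and the share of all calls that were higher went from 27.8% to 40.4% at day 3 and from 26.8% to 38.2% at day 14. These groups also differ in the number within the sample codes and in the spread of values within arrays, and the part of these in the result cannot be told apart. In 12-month rats, where the code number is shared, limma called 0 of 10 members on either day, with 0 and 1 at an unadjusted p under 0.05, and 1.28% and 0.00857% of all genes called. Between the sham groups, 12 against 3 months, Hpgds (-0.64, adjusted p = 0.03) and Lta4h (-0.41, adjusted p = 0.047) were lower at 12 months, with 13% of all genes called, and either call was lost after quantile normalization and in most fits that left out 1 array.

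Around the 10 enzymes, the other genes of the pathway were counted in the same comparisons, to be read against the 11.5%, 13.2%, 18.7% and 10.9% of all genes called higher and the 8.95%, 7.09%, 10% and 5.94% called lower. Of 17 tested genes for further synthesis enzymes and partners, 5, 5, 7 and 5 rose and 1, 0, 1 and 1 fell in the injured hemisphere, in the order 3 months day 3, 3 months day 14, 12 months day 3, 12 months day 14. Their median log2 difference was 0.13, 0.17, 0.21 and 0.17. Mgst1, a microsomal glutathione transferase related to Ltc4s, rose in each, and at 12 months and day 14 it read 8.42, 8.39 and 8.42 against 6.12, 6.44 and 6.42 (2.08, adjusted p = 8.1e-06). Mgst2, which can itself make leukotriene C4, rose at day 3 (2.03, adjusted p = 0.00023, and 1.48, adjusted p = 0.0043) and was 0.43 and 0.28 at day 14, not called. On the 3 injured arrays of 3-month rats at day 3 Mgst2 read 7.55, 5.89 and 4.35, in the same order as Ptgs2. The glutathione peroxidase Gpx1 rose in each (0.67, 0.49, 0.42 and 0.30). Alox12 fell only at 3 months and day 3 (-0.68, adjusted p = 0.00092), and Prxl2b, a prostaglandin F synthase, rose at 12 months and day 3 (0.72, adjusted p = 0.001).

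Of 16 tested genes for the release and supply of arachidonic acid, 2, 2, 3 and 1 rose and 5, 2, 3 and 2 fell, with medians of -0.04, 0.05, -0.02 and -0.08. The rises, between 1 and 3 of 16, were near or below the share of all genes called higher. Pla2g4a, the cytosolic phospholipase that frees arachidonic acid, fell at day 14 (-0.59, adjusted p = 0.00037, and -0.57, adjusted p = 0.00056), as Alox5 did by more. At day 3 it was -0.11 and 0.18, not called, and the change between the days was called at 12 months (-0.75, adjusted p = 0.0041) and not at 3 months (-0.48, adjusted p = 0.1). Acsl3, which couples fatty acids to coenzyme A, fell in each comparison (-1.05, -0.83, -0.89 and -0.85). The monoacylglycerol lipase Mgll fell at day 3 (-0.77 and -0.44). The secreted enzymes Pla2g7, which inactivates platelet-activating factor, and Pla2g2d rose at day 3, Pla2g7 by 1.78 and 1.42 and Pla2g2d by 1.58 and 0.91. At day 14 Pla2g7 was 0.11 and -0.38 and was not called, and its change between the days was called at 3 months (-1.67, adjusted p = 0.012) and at 12 months (-1.80, adjusted p = 0.0039).

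Of 7 tested prostanoid receptors, 2 rose in each comparison: Ptger2 (0.76, 0.44, 0.80 and 0.53) and Ptger4 (0.72, 0.56, 0.71 and 0.80), both receptors of prostaglandin E2 that signal through cyclic AMP. Of 5 tested leukotriene and lipoxin receptors, Cysltr1, a receptor of the cysteinyl leukotrienes that Ltc4s begins, fell at 3 months and day 14 (-0.84, adjusted p = 0.0011) and at 12 months on both days (-0.90, adjusted p = 3e-04, and -1.42, adjusted p = 8.2e-07). At 12 months and day 14 Cysltr1 read 5.50, 6.15 and 6.30 in the injured and 7.22, 7.48 and 7.52 in the opposite hemisphere. At 3 months and day 3 it was -0.46 (95% interval -0.83 to -0.09, adjusted p = 0.075). Of 11 tested genes of inactivation and transport, 0, 2, 1 and 2 rose, with 1, 4, 3 and 2 at an unadjusted p under 0.05, shares that lie below that of all genes called higher at day 3 and above it at day 14 by less than 1 gene of 11. They were the prostaglandin reductases Ptgr1 (day 14 at 3 months, 0.77, and both days at 12 months, 0.52 and 0.79) and Ptgr3 (day 14, 0.64 and 0.73).

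**Figure D4:**
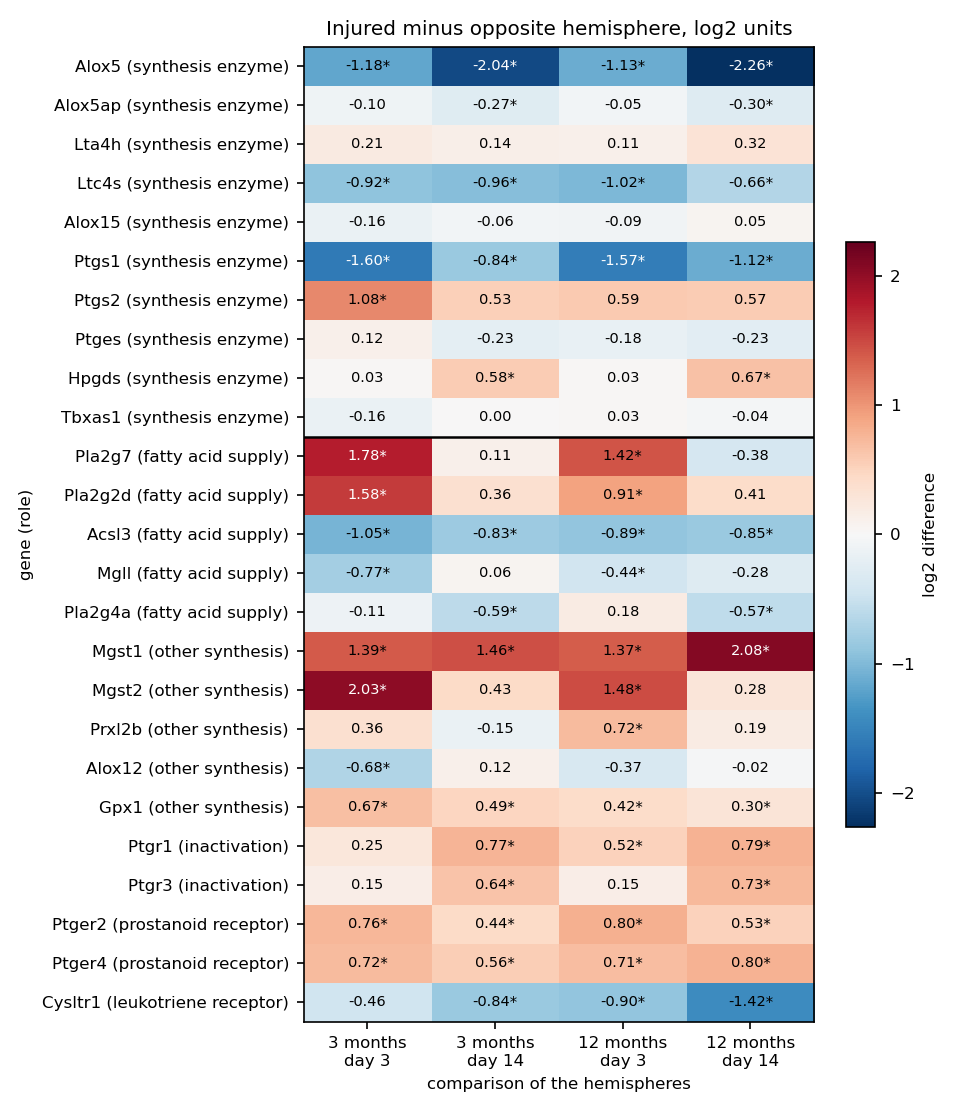
Hemisphere difference (injured minus opposite, log2, colour scale) of the 10 enzymes and 15 other pathway genes (rows) in the 4 combinations of age and day (columns), with an asterisk where limma called the difference. Alox5, Ltc4s, Ptgs1 and Acsl3 are called lower in all 4 columns, and Mgst1, Gpx1, Ptger2 and Ptger4 called higher.

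Across the 30 arrays the genes whose signal ran most like that of Alox5 were P2ry13, Il7r and Entpd1 (Pearson r of 0.96 each), among all genes tested. For Ptgs1 they were F11r (0.98), Slco2b1 (0.97) and Slc43a3 (0.97), and for Ptgs2 Anxa1 (0.90), Lilrb4 (0.90) and Mgst2 (0.89). Among the members, Ltc4s and Ptgs1 ran most alike (0.93), Alox5 with Ltc4s at 0.88 and with Ptgs1 at 0.85, and Ptgs2 ran opposite to Ptgs1 (-0.84). These correlations describe arrays that share groups, 3 to each, so they largely carry the group differences given above.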

How the data were processed

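The authors deposited log2 values of 29214 probe sets on 30 arrays, made with Affymetrix Expression Console and RMA, per the submitters' processing notes (versions not stated). RNA with an integrity number above 7 was amplified from 50 ng, per the labels' protocols. The method of cell isolation was not given in the sources used here. Of the probe sets, 15310 had 1 gene symbol in the platform annotation, 323 several and 13581 none listed, and 14506 genes were named. Symbols were updated through RefSeq (15279 by gene ID, 6 by accession), which changed 2. Probe sets above the array's 30th percentile on at least 3 arrays were kept (22343), and each gene was taken as its kept probe set of highest mean, which left 11675 genes. Limma 3.58.1 in R 4.3.3 fitted 10 group means to all 30 arrays (20 residual degrees of freedom, prior 8.8). It gave 21 comparisons, each adjusted by Benjamini-Hochberg over the genes tested and called at an adjusted p under 0.05. Intervals are 95% and unadjusted. The number of arrays limits the precision. The fit was tested on simulated data. The 12 stroke animals pair the hemispheres through their codes. The correlation of paired arrays' deviations from their group means was -0.08 to 0.21 over 12 pairs, and the consensus correlation 0.072. The members and the lists of pathway genes and markers were chosen with earlier results of these data known. The genes named are all members, at most 5 per pathway list called between hemispheres, by size, and the 3 genes most like each of 3 members. Alternatives were other filters on dim probe sets, quantile normalization, median centring, the animal as a block, only the compared arrays, and each array left out.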

Additional observations from a re-analysis of the deposited data

Results flagged for a closer look

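Alox5 and Ptgs1 are given here because their hemisphere difference itself differed between days, as tested by limma's interaction term. For Alox5, the injured minus opposite difference at day 14 minus that at day 3 was -0.86 at 3 months (adjusted p = 0.019) and -1.14 at 12 months (adjusted p = 0.00085). For Ptgs1 it was 0.75 at 3 months (adjusted p = 0.031). In each case the within-animal differences of the 3 animals of day 14 did not overlap those of the 3 animals of day 3. These are the values that the test itself used, so they add no support to it. The share of all genes with such a separation was not counted. Both 3-month calls were lost under some alternatives, as given above, and the 12-month Alox5 call held under every alternative run. At 3 months the days also differ in the number within the sample codes, and its part cannot be told apart.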

How the results depend on the processing

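Of 64 called values of members over the 21 comparisons, 37 stayed called under every alternative, and of 17 between hemispheres 13 did. 0 called values reversed. For Alox5, Ltc4s and Ptgs1 the hemisphere differences ran from -2.40 to -0.60 over all alternatives, with a highest adjusted p of 0.005. With the replicate block, the pairing of hemispheres by animal, 0 of 210 calls changed (random block) and 0 of 80 (fixed block), so the counts of calls were the same. After quantile normalization the calls against sham of the 3-month opposite hemisphere went from 5 to 2 at day 3 and from 5 to 0 at day 14. Those of the 3-month injured hemisphere against sham went from 7 to 5 at each day. Calls between days in the 3-month injured hemisphere went from 3 to 5, those of the 3-month hemisphere difference between days from 2 to 1 and those between sham ages from 2 to 0. With only the arrays compared, the last 2 counts became 0 and 4. Between sham ages the count was also 1 without the filter on dim probe sets and 1 after median centring. With the stricter filter, 1 member (Alox5, 0.44, adjusted p = 0.049) was called between days in the 3-month opposite hemisphere, in place of 0. The cause of these changes was not tested. Leaving out 1 array at a time gave 3 to 5 calls between hemispheres at day 14 in both ages (3 without injured replicate 1 or 3 at 3 months, and without injured replicate 3 at 12 months), 4 to 5 and 3 to 3 at day 3, 4 to 7 against sham in the 12-month injured hemisphere at day 14 (4 without injured replicate 2) and 2 to 4 between days there (2 without day 3 replicate 1 or 3 or day 14 replicate 3). It gave 0 to 1 between days in the 3-month opposite hemisphere, 0 to 3 for the 3-month hemisphere difference between days, 0 to 1 for the day 3 hemisphere difference between ages and 0 to 1 between sham ages. Signal over background limits Alox15, Ptges and Hpgds, the dim members.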
